A study of Mus musculus with 8 samples.

Results

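The genes described here are 8 transcription factors of memory and effector CD8 T cells, Eomes, Tbx21 (which encodes T-bet), Zeb2, Prdm1, Hopx, Bhlhe40, Ikzf2 and Zfp683. They were taken by symbol, with no cut on a measured value, as 8 rows of a table of 47937 genes. The counts come from CD8 single-positive (CD8SP) TCRβ+ MHC-I high thymocytes, the late stage of CD8 T cell development in the thymus, which were sorted from mice of 6 to 7 weeks on a C57BL6/J background, with 1 RNA library per mouse. The 4 Ndrg3 ctrl mice carried 1 floxed and 1 intact Ndrg3 allele with Lck-cre (Ndrg3 +/fl;Lck-cre+), and the 4 Ndrg3 TKO mice carried 2 floxed alleles with Lck-cre (Ndrg3 fl/fl;Lck-cre+). Both groups therefore had the Cre transgene and at least 1 floxed allele, and Cre-negative mice were not analysed here. The proximal Lck promoter drives Cre from the early thymocyte stages, so that recombination precedes the CD8SP stage.

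Eomes and T-bet are related T-box transcription factors. In CD8 T cells they switch on genes for cytotoxicity, for chemokines and their receptors, and for the β chain of the receptor that binds interleukin-15, and Eomes in particular supports the long life of memory cells. In the thymus, Eomes is best known from innate-like CD8 thymocytes that acquire memory features in response to interleukin-4 without meeting foreign antigen. The other 6 genes act beside this pair: Zeb2 and Prdm1 (Blimp-1) in terminal effector differentiation, Zfp683 (Hobit) in tissue-resident cells, Hopx and Bhlhe40 in persistence and cytokine production, and Ikzf2 (Helios) in regulatory and self-reactive T cells.

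Eomes lies on chromosome 9 (GRCm38) from 118478212 to 118486132 on the plus strand, and Tbx21 on chromosome 11 from 97098071 to 97115331 on the minus strand. The 250 bases before the RefSeq start sites of these T-box genes are printed because the paralogues behaved differently in the data below (RefSeq, GRCm38.p6, chr9:118477939-118478188 on the plus strand and chr11:97115332-97115581 on the minus strand). They are written 5′ to 3′ along the gene, with matches to a TATAA box, a CCAAT box (ATTGG when read on the opposite strand) and a GGGCGG box in capitals.
Eomes: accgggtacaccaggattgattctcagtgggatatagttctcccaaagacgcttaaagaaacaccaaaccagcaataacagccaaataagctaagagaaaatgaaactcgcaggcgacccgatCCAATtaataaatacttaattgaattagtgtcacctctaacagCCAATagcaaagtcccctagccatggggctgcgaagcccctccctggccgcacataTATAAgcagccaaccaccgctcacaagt
Tbx21: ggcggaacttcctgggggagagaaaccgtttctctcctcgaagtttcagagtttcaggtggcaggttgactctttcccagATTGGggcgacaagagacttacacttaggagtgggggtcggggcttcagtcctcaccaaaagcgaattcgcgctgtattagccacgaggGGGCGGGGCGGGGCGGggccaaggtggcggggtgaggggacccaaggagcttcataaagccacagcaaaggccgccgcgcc
The Eomes window was 46.4% GC, with TATAA beginning 28 bases before the start site and CCAAT at 127 and 84 bases before it. The Tbx21 window was 60.8% GC, with no TATAA, 3 overlapping GGGCGG boxes at 81, 76 and 71 bases before the start site and an opposite-strand CCAAT at 170. The boxes are common: among 32851 mouse promoter windows of the same length, 22.8% held TATAA, 33.8% CCAAT and 32.7% GGGCGG on either strand. Neither window held the T-box half-site AGGTGTGA (1.12% of all windows), the RUNX letters TGTGGTT (4.4%), the TCF/LEF letters CTTTGAA (4.46%), the STAT letters TTCNNNGAA (7.02%), the GATA letters AGATAA (9.99%) or the E-box CACGTG (6.02%), all searched on both strands. A match or its absence describes these letters in this window only. Of the 8 genes, 5 had such a window in the table used.

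The libraries held 21126698 to 32668081 counts, and a floor of 3 counts corresponded to 0.0918 to 0.142 CPM (a gene's counts scaled to the library total), a limit that covers counting error only. Of all genes, 14633 had enough counts to be tested, among them all 8 of these. For the targeted gene, Ndrg3, counts scaled for library size were 2336.86 ± 29 in Ndrg3 ctrl against 1500.44 ± 87.2 in Ndrg3 TKO (SD, n = 4 each), with the groups apart. The floxed segment is a critical exon, and these counts cover the whole gene, with the exons outside that segment. They are therefore not a measure of the protein, for which the authors reported efficient loss in Ndrg3 TKO thymocytes by western blot. All 10 CD8SP markers (Cd8a, Cd8b1, the T cell receptor constant genes, Cd3e, class I genes, Runx3) were tested and 0 of them passed the threshold, with a summed level of 8350 to 9705 CPM in Ndrg3 ctrl and 8666 to 9467 CPM in Ndrg3 TKO. The summed level of 4 Y-linked genes was over 10 CPM in Ndrg3 ctrl replicate 2 and in Ndrg3 TKO replicates 2 and 3 and at most 0.0752 CPM in the other 5 libraries, called libraries without Y-linked counts below, so the groups are not balanced in them.

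Loss of Ndrg3 went with a lower level of Eomes, while the levels of its paralogue Tbx21 overlapped between the groups, without a fixed direction of change. Of the 8 transcription factors, 1 (Eomes) was lower in Ndrg3 TKO past the threshold, and 0 were higher. Over all tested genes, 0.355% were lower and 0.793% higher at the same threshold, an adjusted p under 0.05 (quasi-likelihood test of edgeR, Benjamini-Hochberg adjusted). In 2 of the 8, Eomes and Zeb2, every Ndrg3 TKO library lay outside the range of the Ndrg3 ctrl libraries, as was the case for 7.04% of all tested genes. Before adjustment, 5 of the 8 had a p under 0.05, against 10.9% of tested genes. Log2 fold changes were negative for 6 genes and positive for 2, with a median of −0.19 against −0.003 over all tested genes.

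The level of each gene was first compared per length, as CPM per kb of exon. In Ndrg3 ctrl, Ikzf2 was highest with 46.2 ± 3.54 CPM per kb (SD, n = 4), followed by Zfp683 with 9.92 ± 1.05. Hopx with 3.87 ± 0.286 and Eomes with 3.67 ± 0.578 came next and overlapped each other. Bhlhe40 followed with 1.12 ± 0.224, then Tbx21 with 0.556 ± 0.0802, Prdm1 with 0.168 ± 0.0395 and Zeb2 with 0.045 ± 0.00394 CPM per kb. The levels thus spanned from Ikzf2, read at least 9825 times per Ndrg3 ctrl library, to Zeb2 and Prdm1, read only 16 to 33 times. Apart from Hopx and Eomes, no 2 neighbours in this order overlapped.

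In Ndrg3 TKO the order of the 8 genes was the same, but the neighbours that overlapped were not. Eomes, at 1.53 ± 0.24 CPM per kb (SD, n = 4), lay below every Hopx value (3.78 ± 0.52) and overlapped Bhlhe40 (1.25 ± 0.186). Ikzf2 stood at 53.8 ± 6.14, Zfp683 at 7.92 ± 1.09 and Tbx21 at 0.534 ± 0.178 CPM per kb. Prdm1, at 0.0959 ± 0.0238, and Zeb2, at 0.0258 ± 0.00878, stayed at the low end. These levels are averages over the sorted cells, and fewer cells with a transcript cannot be told apart from less of it per cell.

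**Figure D1:**
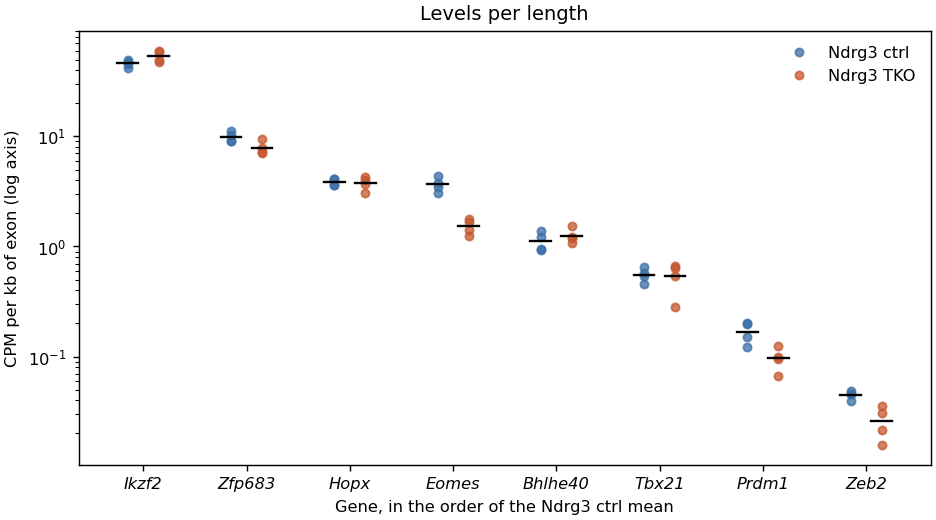
Level of each gene in CPM per kb of exon (log axis), with a point per library and a line at the mean of each group of 4. Ikzf2 lies highest and Zeb2 lowest in both groups, and Eomes moves from beside Hopx in Ndrg3 ctrl to beside Bhlhe40 in Ndrg3 TKO.

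Normalized counts of Eomes, in the order of replicates 1 to 4 here and below, were 414, 458, 365 and 528 in the Ndrg3 ctrl mice, against 151, 214, 202 and 171 in the Ndrg3 TKO mice. The highest Ndrg3 TKO library thus lay well under the lowest Ndrg3 ctrl library, and the raw counts behind these values, 157 to 499 per library, are far above the floor. The mean was 441 ± 69.6 (SD, n = 4) against 184 ± 28.8 (SD, n = 4), which is −1.26 on the log2 scale (95% interval −1.55 to −0.97, standard error 0.135, adjusted p = 0.00017 by edgeR's quasi-likelihood test). Eomes was 2.39-fold lower in Ndrg3 TKO, with an interval of 1.96-fold to 2.92-fold. Within a group the libraries varied by 15.8% in Ndrg3 ctrl and 15.6% in Ndrg3 TKO (coefficient of variation), more than the 4.97% and 7.1% that counting alone gives. In the 5 libraries without Y-linked counts, the log2 fold change of Eomes was −1.43 (adjusted p = 0.000335 by edgeR's test).

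**Figure D2:**
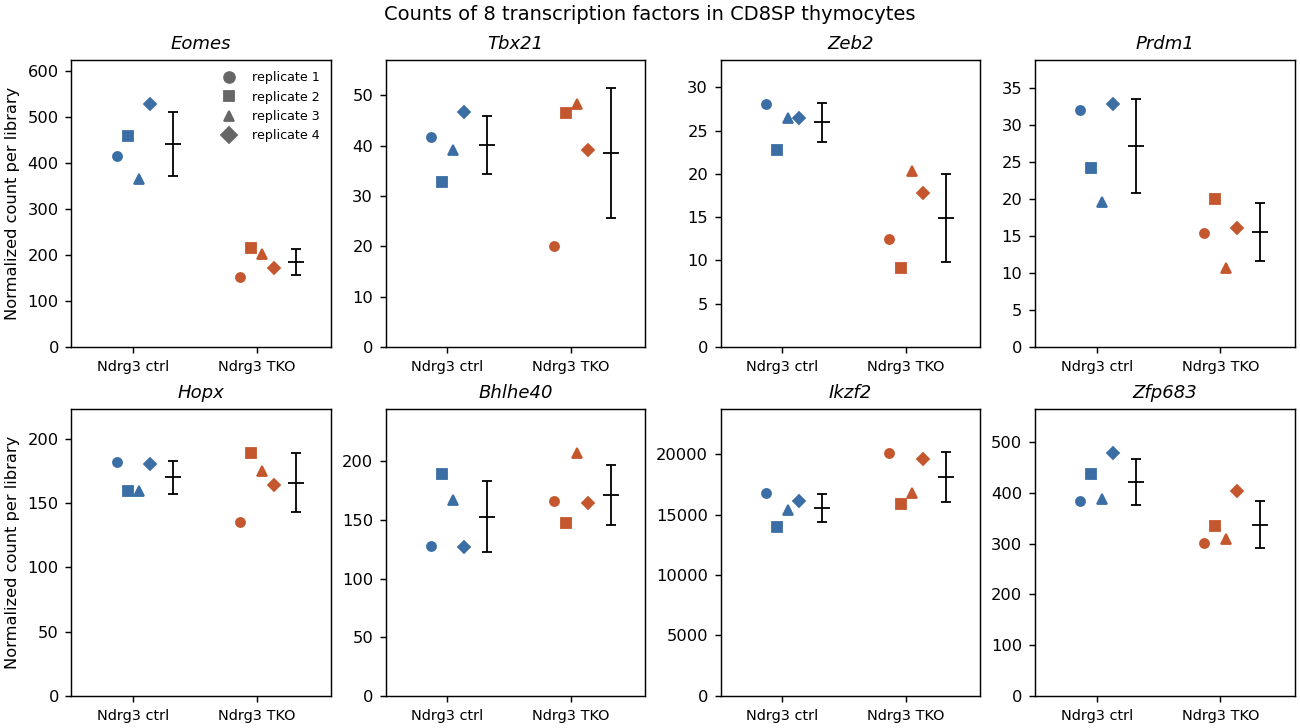
Normalized count of each gene in each library (vertical axis from 0, scaled per gene), with a marker per replicate number and bars for the mean ± SD of 4 libraries per group. Only for Eomes and Zeb2 do all Ndrg3 TKO libraries lie below all Ndrg3 ctrl libraries.

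Normalized counts of Tbx21 were 41.7, 32.7, 39.2 and 46.6 in the Ndrg3 ctrl mice, against 20.1, 46.4, 48.3 and 39.1 in the Ndrg3 TKO mice. The groups overlapped, with Ndrg3 TKO replicate 1 below every other library and replicate 3 above them all. The means were 40.1 ± 5.78 and 38.5 ± 12.9 (SD, n = 4 each), or −0.07 on the log2 scale (standard error 0.258, adjusted p = 0.955 by edgeR's test). The 95% interval, −0.62 to 0.49, leaves room for a change of either sign, and with 21 to 51 raw counts per library counting alone gives a variation of 16.3% and 15.5% in the groups. Without Ndrg3 TKO replicate 1 the log2 fold change of Tbx21 was 0.14, without Ndrg3 ctrl replicate 4 it was 0.01, and in the libraries without Y-linked counts it was −0.51 (adjusted p = 0.676 by edgeR's test), so its direction was not fixed by these data.

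The balance of the T-box pair was compared within each library, as the raw count of Eomes over that of Tbx21 (0.5 added to each), a ratio that needs no scaling between libraries. It was 9.8, 13.7, 9.2 and 11.2 in Ndrg3 ctrl and 7.33, 4.57, 4.15 and 4.33 in Ndrg3 TKO. All Ndrg3 TKO values lay below all Ndrg3 ctrl values, with replicate 1 of Ndrg3 TKO, the library with the fewest Tbx21 counts, nearest to the Ndrg3 ctrl range. The log2 ratio went from 3.44 ± 0.255 to 2.31 ± 0.381 (SD, n = 4 each), a difference of −1.13 or 2.19-fold (exact 2-sided permutation test, p = 0.0286, the smallest that the 70 splits of 8 libraries allow). The ratio shares its Eomes counts with the comparison above and is not a separate observation of Eomes. Without any one of the Ndrg3 ctrl libraries, replicates 1 to 4, the difference was −1.21 to −1.02 and p was 0.0571 (exact permutation, 35 splits), over the threshold. In each case all Ndrg3 TKO ratios still lay below the remaining Ndrg3 ctrl ratios. With groups of unequal size, another split, which set the lowest ratios apart from the rest, gave at least as large a difference. This p therefore does not show that the difference depends on a Ndrg3 ctrl library. In the 5 libraries without Y-linked counts it was −0.84, where 10 splits cannot reach the threshold.

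**Figure D3:**
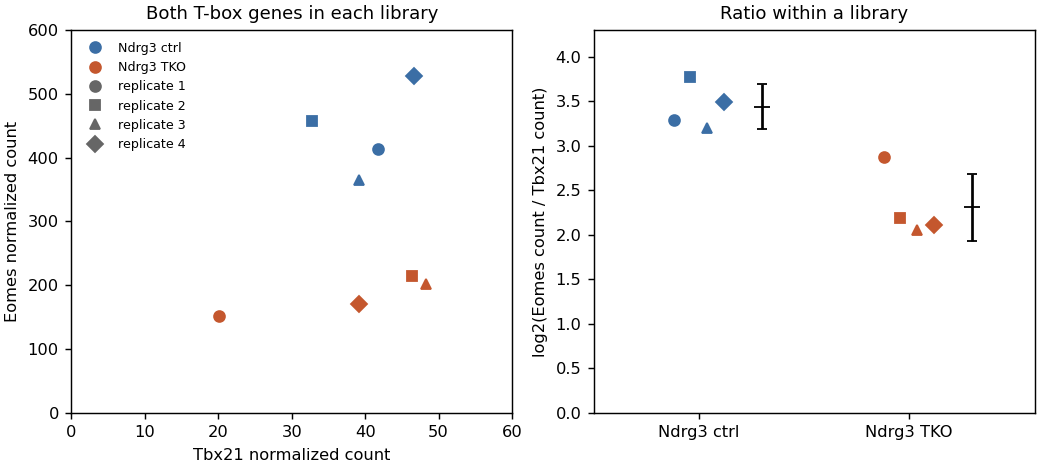
Left, normalized count of Eomes against that of Tbx21 in each library; right, log2 ratio of the raw counts of the pair, with the mean ± SD of 4 libraries per group. Ndrg3 TKO libraries lie at 214 or lower in Eomes but spread over the whole Tbx21 range, and their log2 ratios of 2.05 to 2.87 lie below the Ndrg3 ctrl ratios of 3.20 to 3.78.

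Zeb2, a zinc finger repressor that acts with T-bet in terminal effector cells, and Prdm1, which encodes the repressor Blimp-1, were the least abundant of the genes. Normalized counts of Zeb2 were 28.1, 22.8, 26.5 and 26.5 in the Ndrg3 ctrl mice, against 12.5, 9.09, 20.3 and 17.8 in the Ndrg3 TKO mice. The groups did not overlap, although the nearest libraries lay only a few counts apart, and the raw counts were 10 to 29 per library. The log2 fold change was −0.81 (standard error 0.283, 95% interval −1.41 to −0.20), which did not pass after adjustment (unadjusted p = 0.013, adjusted p = 0.278 by edgeR's test).

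Normalized counts of Prdm1 were 32, 24.2, 19.6 and 32.8 in the Ndrg3 ctrl mice, against 15.4, 20, 10.6 and 16 in the Ndrg3 TKO mice. Of the Ndrg3 TKO libraries, 3 lay below all Ndrg3 ctrl libraries and replicate 2 did not. Its log2 fold change was also −0.81 (standard error 0.282, adjusted p = 0.276 by edgeR's test). The spread of Prdm1 within Ndrg3 TKO, 24.8%, was close to the 24.4% of counting error, as it was in Ndrg3 ctrl (23.5% against 19.9%), and depth limits what can be said of both genes.

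Zfp683 encodes Hobit, a relative of Blimp-1 that holds lymphocytes in tissues. Its normalized counts were 384, 438, 388 and 479 in Ndrg3 ctrl and 301, 334, 310 and 404 in Ndrg3 TKO. In 3 Ndrg3 TKO libraries Zfp683 was under the whole Ndrg3 ctrl range, and in replicate 4 it lay within that range. The means were 422 ± 44.8 and 337 ± 46.3 (SD, n = 4 each), or −0.32 on the log2 scale (standard error 0.11, 95% interval −0.56 to −0.09) that did not pass the threshold (unadjusted p = 0.0112, adjusted p = 0.261 by edgeR's test).

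Hopx encodes a small homeodomain protein that does not itself bind DNA and marks long-lived effector cells, and Bhlhe40 a basic helix-loop-helix repressor that supports cytokine production. Normalized counts of Hopx were 182, 159, 159 and 180 in the Ndrg3 ctrl mice, against 135, 189, 175 and 164 in the Ndrg3 TKO mice, with both the lowest and the highest value in Ndrg3 TKO. Its log2 fold change was −0.04 (standard error 0.129, 95% interval −0.31 to 0.24, adjusted p = 0.948 by edgeR's test), and 0.05 without Ndrg3 TKO replicate 1. Its antisense neighbour Hopxos, which shares 412 exon bases with Hopx, had 5 to 17 counts per library against 112 to 208 for Hopx.

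Normalized counts of Bhlhe40 were 128, 189, 167 and 127 in the Ndrg3 ctrl mice, against 166, 147, 207 and 164 in the Ndrg3 TKO mice. The ranges overlapped, with 2 Ndrg3 ctrl libraries below all Ndrg3 TKO libraries and 1 Ndrg3 TKO library above all Ndrg3 ctrl libraries, and the log2 fold change was 0.17 (standard error 0.156, 95% interval −0.17 to 0.50, adjusted p = 0.747 by edgeR's test). For both Hopx and Bhlhe40 the intervals thus stayed within 1.42-fold of no change in either direction.

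Ikzf2, which encodes the Ikaros family member Helios, was the most deeply read, with 9825 to 22033 raw counts per library. Its normalized counts were 16746, 13975.2, 15338.5 and 16099.4 in Ndrg3 ctrl and 20091.4, 15899.7, 16760.9 and 19583 in Ndrg3 TKO. In 3 Ndrg3 TKO libraries Ikzf2 lay above all Ndrg3 ctrl libraries, replicate 3 barely so, and in replicate 2 it lay within their range. The log2 fold change was 0.22 (standard error 0.081, 95% interval 0.05 to 0.39), short of the threshold in the comparison of all 8 libraries (unadjusted p = 0.0172, adjusted p = 0.309 by edgeR's test). It passed when the presence of Y-linked counts was a covariate, at a log2 fold change of 0.28 (adjusted p = 0.00744 by edgeR's test). In that fit 437 of all genes passed, against 168 without the covariate. In the libraries without Y-linked counts the log2 fold change of Ikzf2 was 0.305, which did not pass (adjusted p = 0.101 by edgeR's test). Counting error is small here, 0.831% in Ndrg3 ctrl and 0.717% in Ndrg3 TKO, and the spread between libraries was 7.67% and 11.4%. Gm28112 and Gm29112, annotated on the same strand within its introns, had log2 fold changes of 0.40 and 0.43 (adjusted p = 0.756 and 0.759 by edgeR's test).

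**Figure D4:**
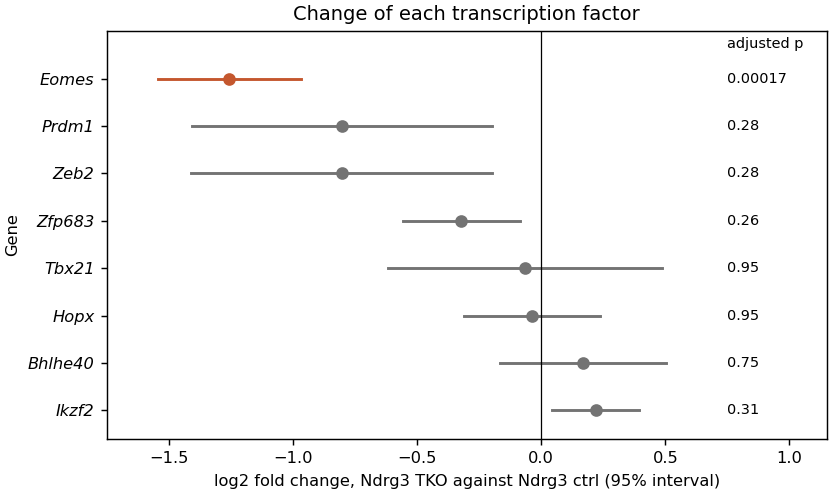
Log2 fold change of each gene, Ndrg3 TKO against Ndrg3 ctrl (n = 4 each), with its 95% interval and the adjusted p from edgeR at the right. The interval of Eomes, −1.55 to −0.97, lies lowest, and those of Tbx21, Hopx and Bhlhe40 include 0.

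The genes lie on 8 different chromosomes. Within 500 kb of them, 78 tested neighbours were found, and 0 of these passed the threshold. Over all tested genes, 0.355% were lower and 0.793% higher past it, so that 0 among 78 is near that share. Around Eomes, 8 neighbours were tested, with a median log2 fold change of −0.02. Zeb2 shares 653 exon bases with the antisense gene Zeb2os, which had at most 1 count in a library.

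The relatives of these factors in their own families (T-box, Zeb, Bhlhe, Ikaros and Prdm genes) did not move past the threshold. Of 24 relatives, 12 were tested and 0 passed by edgeR or by DESeq2, where 0.355% of all tested genes were lower and 0.793% higher. At an unadjusted p under 0.05 there were 4 of the 12, against 10.9% of all tested genes, and the median log2 fold change was 0.03. Ikzf1, which encodes Ikaros and was the most abundant of them, was at 30994 ± 1403.83 normalized counts in Ndrg3 ctrl against 30758.7 ± 1113.45 in Ndrg3 TKO (SD, n = 4 each). Among the T-box relatives, Mga (log2 fold change 0.07), Tbx6 (−0.08) and Tbx2 (0.21) had enough counts to be tested, and 6 relatives had no count in any library. Of the 5 tested T-box genes, Eomes and Tbx21 included, only Eomes thus passed by edgeR's test.

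The other transcription factors that guide CD8 T cell fate mostly stayed short of the threshold. Of 25, 24 were tested, 2 rose and 0 fell (0.793% and 0.355% of all tested genes did so), and the median log2 fold change was 0.02. At an unadjusted p under 0.05 there were 8 of the 24, against 10.9% of all tested genes. Among these 8, Id3, an inhibitor of E proteins, was lower in every Ndrg3 TKO library but missed the threshold (log2 fold change −0.27, adjusted p = 0.0716 by edgeR's test). Bcl6, a repressor that favours memory precursors and opposes Blimp-1, rose from 851 ± 78.4 to 1295.33 ± 144 (SD, n = 4 each) (log2 fold change 0.60, adjusted p = 0.00223 by edgeR's test). Gata3, required for thymocyte and CD8 T cell maintenance, rose from 1696.81 ± 82.3 to 2379.98 ± 165 (log2 fold change 0.49, adjusted p = 0.000525 by edgeR's test). In both genes the groups did not overlap. The most abundant factor, the chromatin organizer Satb1, had a log2 fold change of 0.02, and the naive and memory cell factor Tcf7 also had 0.02.

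Genes described elsewhere as targets of Eomes and T-bet moved in both directions. Of 25, 17 were tested, 2 fell, 1 rose and 14 did not pass, where 0.355% of all tested genes were lower and 0.793% higher. At an unadjusted p under 0.05 there were 10 of the 17, against 10.9% of all tested genes. Log2 fold changes were negative for 12 and positive for 5, with a median of −0.04. The chemokine Ccl5 fell from 36 ± 3.43 to 6.71 ± 2.5 normalized counts (SD, n = 4 each) (log2 fold change −2.39, adjusted p = 0.000603 by edgeR's test). The chemokine receptor Cxcr3 fell from 50 ± 10.4 to 16.9 ± 2.1 (log2 fold change −1.55, adjusted p = 0.00356 by edgeR's test). Both are scarce transcripts in these cells.

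Il18r1, a chain of the interleukin-18 receptor, went the other way, from 285 ± 45.4 to 517 ± 43.9 normalized counts (log2 fold change 0.86, adjusted p = 0.00109 by edgeR's test). Il2rb, the interleukin-2 and interleukin-15 receptor chain usually named first among the shared targets of the T-box pair, had 9609.13 ± 812 normalized counts in Ndrg3 ctrl against 9157.74 ± 723 in Ndrg3 TKO (log2 fold change −0.07, adjusted p = 0.774 by edgeR's test). Of the cytotoxic genes, Prf1, Gzmm and Gzma had log2 fold changes of −0.08, −0.03 and −0.02 with the groups overlapping. Gzmb had 15.9 to 27 normalized counts in Ndrg3 ctrl against 5.76 to 15.5 in Ndrg3 TKO, without overlap, and did not pass (log2 fold change −0.88, unadjusted p = 0.0256, adjusted p = 0.372 by edgeR's test). Gzmk, too scarce to be tested, had 5.94 ± 3.36 against 1.68 ± 2.76 normalized counts (SD, n = 4 each), with overlap. Nkg7 and Klrd1, of the same list, had positive log2 fold changes of 0.23 and 0.31, with the groups overlapping. Neither passed (adjusted p = 0.203 and 0.32 by edgeR's test). Itga4, the most abundant of the list, had a log2 fold change of 0.19 (adjusted p = 0.142 by edgeR's test).

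**Figure D5:**
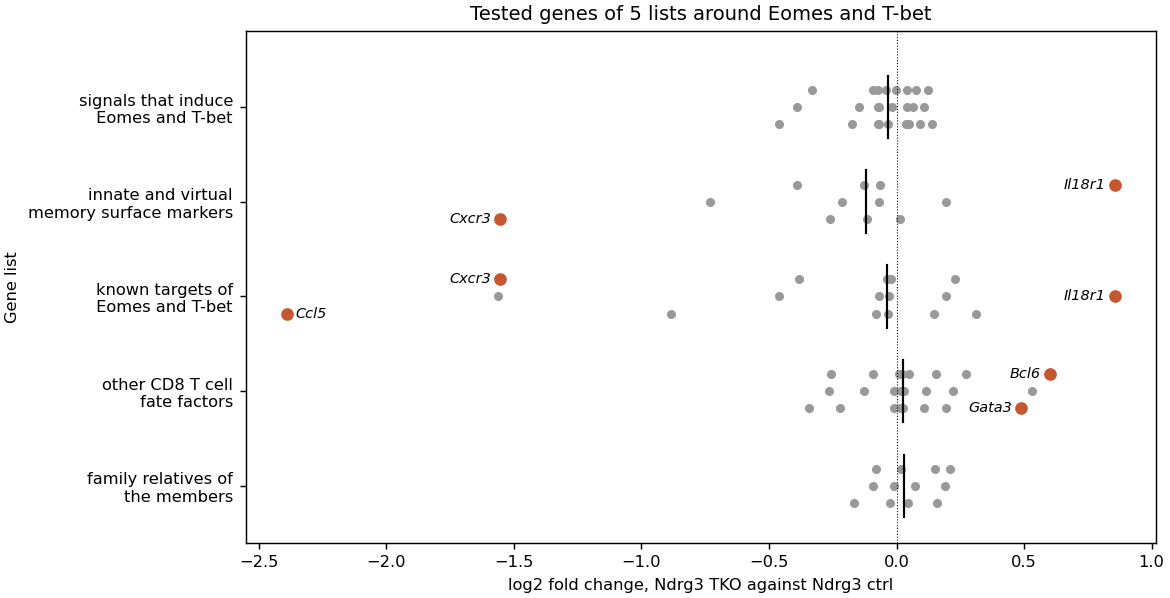
Log2 fold change of each tested gene of 5 lists (horizontal axis, Ndrg3 TKO against Ndrg3 ctrl), with genes past the threshold named and in colour and a line at each list's median. Ccl5 and Cxcr3 lie lowest and Il18r1 highest, and the medians of the lists lie between −0.12 and 0.03.

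Surface markers of innate-like and virtual memory CD8 T cells gave a similar picture. Of 14, 12 were tested, 1 fell (Cxcr3) and 1 rose (Il18r1), both of which also stand in the target list. Over all tested genes, 0.355% were lower and 0.793% higher past the threshold. The median log2 fold change of the 12 was −0.12. At an unadjusted p under 0.05 there were 7 of the 12, against 10.9% of all tested genes. Ly6c2, which is high on memory-phenotype cells, had 479 ± 94.6 normalized counts in Ndrg3 ctrl and 287 ± 66.2 in Ndrg3 TKO without overlap, and missed the threshold (log2 fold change −0.73, adjusted p = 0.0632 by edgeR's test). Cd44, the defining marker of memory phenotype, had a log2 fold change of −0.06 (adjusted p = 0.832 by edgeR's test). The integrin chain Itgae, the most abundant of these markers, had a log2 fold change of 0.01.

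The receptors, kinases and STAT factors through which interleukin-4, interleukin-12, interleukin-15 and interferons induce Eomes or T-bet were all tested, and 0 of 25 passed the threshold by edgeR's test. Over all tested genes, 0.355% were lower and 0.793% higher. At an unadjusted p under 0.05 there were 7 of the 25, against 10.9% of all tested genes, by DESeq2 2 passed, and the median log2 fold change was −0.03. The interleukin-4 receptor chain Il4ra (log2 fold change −0.02) and its factor Stat6 (−0.07) were at similar levels in both groups, as was Jak1 (−0.07), the most abundant of the list. The chains of the interleukin-12 receptor had log2 fold changes of −0.33 for Il12rb1 and −0.46 for Il12rb2 (adjusted p = 0.0923 and 0.12 by edgeR's test).

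Because NK, NKT and γδ T cells also express Eomes, T-bet, Zeb2 or Hobit, their markers were read in the same libraries. The summed level of 9 NK and NKT markers was 25.5 to 33.3 CPM in Ndrg3 ctrl and 35.1 to 44.4 CPM in Ndrg3 TKO, higher without overlap. Most of it was Cd160, with 24.2 to 31.2 CPM and 32.5 to 41.4 CPM (adjusted p = 0.121 by edgeR's test). The sum thus mainly follows this gene and is not a measure of the number of NK or NKT cells. Klrb1c was past the threshold, at 0.11 to 0.639 CPM in Ndrg3 ctrl against 1.48 to 2.04 CPM in Ndrg3 TKO (log2 fold change 2.62, adjusted p = 0.00149 by edgeR's test).

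Of the other NK and NKT markers, Ncr1, Klrb1b, Klra8 and Klre1 had at most 3 counts in every library, and Tyrobp 0 to 4. Fcer1g had 19 to 30 counts (log2 fold change −0.03, adjusted p = 0.98 by edgeR's test). Zbtb16 had 1 to 10 counts, fewer in every Ndrg3 TKO library than in any Ndrg3 ctrl library after scaling. By flow cytometry, the authors found invariant NKT cells nearly missing from the thymus of Ndrg3 TKO mice. The 8 γδ T cell markers summed to 22.3 to 30.5 CPM in Ndrg3 ctrl and 27.2 to 59.9 CPM in Ndrg3 TKO, with 0 past the threshold (edgeR). The 6 B cell markers summed to 11.2 to 13.3 CPM and 8.72 to 9.52 CPM, nearly all of it Cd79b, with Ms4a1 and Pax5 at 3 counts or fewer everywhere. Markers of the CD4 lineage (12.3 to 20.3 CPM and 16.3 to 24.7 CPM), of double-positive thymocytes (52 to 62.4 CPM and 51.4 to 63.7 CPM) and of myeloid and stromal cells (171 to 198 CPM and 160 to 177 CPM) overlapped between Ndrg3 ctrl and Ndrg3 TKO in their sums. The part of any such cells in the levels of the 8 transcription factors was not tested.

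Genes whose pattern over the libraries was most like that of Eomes were ranked by Pearson's r of log2 CPM over the 8 libraries, as a description that includes the difference between the groups. The 5 highest were Tti1 (r = 0.987), Hcst (0.982), Mvk (0.981), Vipr1 (0.978) and Rap1gap2 (0.975), and 87 of 14625 genes had an r over 0.9. Of these 5, Vipr1, a receptor for vasoactive intestinal peptide, and Rap1gap2, a regulator of the GTPase Rap, fell in Ndrg3 TKO, with log2 fold changes of −0.58 and −0.54 (adjusted p = 0.000716 and 0.0172 by edgeR's test). Hcst, which encodes the adaptor DAP10 of NK receptors, had a log2 fold change of −0.17 (adjusted p = 0.249 by edgeR's test).

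With the mean of each group subtracted, which leaves the variation among mice of one genotype, the 5 highest were Gabarapl1 (r = 0.976), Tnfrsf22 (0.976), Hip1r (0.964), Rom1 (0.963) and Zfp365 (0.959), and 39 genes had an r over 0.9. No gene was in both sets of 5, although Tti1 had an r of 0.955 by this measure too. With 8 libraries and 14625 genes, values of this size describe these libraries only.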

How the data were processed

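CD8SP TCRβ+ MHC-I high thymocytes of 4 Ndrg3 ctrl and 4 Ndrg3 TKO mice were sequenced as stranded, ribosome-depleted total RNA, with 1 library per mouse. The authors used cutadapt for trimming, STAR for alignment to GRCm38.p4 and featureCounts with GENCODE M9 for counting, and deposited raw counts per gene. The strand setting of the counting is not given in the sources used here. Gene symbols came from GENCODE M21 (GRCm38), matched by identifier for 98.5% of 47937 genes.

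Counts were filtered with filterByExpr, scaled by TMM and tested with edgeR 4.0.16 (glmQLFit, robust, and glmQLFTest) in R 4.3.3, with Benjamini-Hochberg adjustment over 14633 genes and a threshold of 0.05. DESeq2 1.42.0 was an alternative. Standard errors are the log2 fold change over the square root of F. Normalized counts are counts over the scaled library size, times its mean. Counting error treats reads as independent molecules, which PCR copies are not. The procedure was tested on simulated data. Single values were compared by exact permutation.

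The 8 genes, the lists and the markers were chosen with earlier results of these data known. Named singly were the 8 genes, Ndrg3, list members past the threshold, the most abundant gene of each list and the 5 genes most like Eomes by each measure. Ly6c2, Cd44, Il2rb, Tcf7, Prf1, Gzma, Gzmb, Gzmk, Gzmm, Nkg7, Klrd1 and Id3 were added after the values were seen. So were Mga, Tbx2, Tbx6, Il4ra, Stat6, Il12rb1, Il12rb2 and the overlapping genes. The NK, NKT, γδ T cell and B cell markers other than Cd160, Scart2 and Cd79b were also added then. The 3 kinds of promoter box in capitals were added after the sequences were seen. Other settings were RLE size factors, DESeq2, no filter, a stricter filter of 10 counts in every library, no robust step, the replicate block, Y-linked counts as a covariate or as a ground for leaving libraries out, and leaving out each library in turn.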

Additional observations from a re-analysis of the deposited data

How the results depend on the processing

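Eomes kept its direction and passed the threshold under all 16 alternatives, with log2 fold changes from −1.43 to −1.16. Zeb2, Prdm1 and Bhlhe40 kept their direction and stayed short of the threshold under the same 16. With one library left out at a time, log2 fold changes ranged from −1.34 to −1.16 for Eomes, from −0.19 to 0.14 for Tbx21 (0.01 without Ndrg3 ctrl replicate 4 and 0.14 without Ndrg3 TKO replicate 1) and from −0.11 to 0.047 for Hopx (0.047 without Ndrg3 TKO replicate 1). Ikzf2 passed the threshold with Y-linked counts as a covariate (0.28), but not in the libraries without them (0.305, adjusted p = 0.101, edgeR). The difference in the log2 ratio of Eomes to Tbx21 ranged from −1.32 to −1.02 with one library left out. Without any one of the Ndrg3 TKO libraries p was 0.0286 (exact permutation over 35 splits, the smallest they allow). Without any one of the Ndrg3 ctrl libraries p was 0.0571 (exact permutation), with the groups still apart. In the libraries without Y-linked counts the difference was −0.84 (p = 0.1, exact permutation).

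The number of genes past the threshold, 168, was 309 by DESeq2, 274 with no filter, 437 with Y-linked counts as a covariate and 92 in the libraries without them. It was 90 to 158 with one library left out, and changed by more than 1.5 times without Ndrg3 ctrl replicates 1 (100), 3 (110) and 4 (104) and without Ndrg3 TKO replicates 1 (106), 3 (90) and 4 (107). Among the CD8 T cell fate factors 4 passed with no filter and 6 with the Y-linked covariate. Among the targets of Eomes and T-bet 5 passed by DESeq2, and 3 to 5 with one library left out (5 without Ndrg3 TKO replicate 1). Among the innate and virtual memory markers 4 passed by DESeq2 and 7 with the Y-linked covariate. Among the inducing signals 2 passed by DESeq2, 2 with no filter and 1 with the Y-linked covariate, and 0 to 1 with one library left out (1 without Ndrg3 TKO replicate 1). The cause of these changes was not tested.

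Both groups are numbered 1 to 4. After the group means were removed, same-numbered libraries correlated across genes with 0.181, 0.415, −0.055 and 0.301, and Ndrg3 ctrl replicate 3 correlated best with Ndrg3 TKO replicate 4 (0.145), so that the numbers were not taken to pair the mice. With the replicate block, 800 genes passed, among them Ikzf2 (log2 fold change 0.22, adjusted p = 0.00438, edgeR) and Zfp683 (−0.33, adjusted p = 0.0213, edgeR), 3 family relatives, 7 fate factors, 7 targets, 5 innate and virtual memory markers and 3 inducing signals. The block left the log2 ratio at −1.13 (p = 0.125, exact permutation within pairs, the smallest that 4 pairs allow). Depth limits Tbx21, Zeb2 and Prdm1, with at most 51 counts in a library.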
